A study of Mus musculus with 8 samples.

Results

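Colon epithelium of germ-free mice (GF) was compared with colon epithelium of antibiotic-treated mice of the group named Abx_14D, each with 4 numbered samples. Cells were taken by the sample name in the deposited cell table and by a depth of at least 500 transcripts. This gave 8067 of the 15916 cells kept in the series, from 8 of its 32 loaded samples: 3852 cells of Abx_14D (1886, 775, 542 and 649 in samples 1 to 4) and 4215 of GF (1383, 1425, 733 and 674). The depth limit removed no barcode of these 8 samples.

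The series holds single-cell RNA-seq of epithelial cells sorted from mouse large bowel, colon and cecum, in 4 groups named Ctrl, Abx_4D, Abx_14D and GF. Cells positive for EPCAM, an epithelial surface protein, and negative for CD45, the pan-leukocyte antigen, were sorted, with CD44-positive (proliferative) and CD44-negative (differentiated) cells at equal numbers, so the balance between those compartments was set by the sort. Cells were barcoded by split-pool labelling, and each of the 8 deposited sublibraries holds cells of every condition. Germ-free mice are reared without microbes, and the name Abx_14D marks an antibiotic group. How much microbiota the Abx_14D mice held at sampling was not measured here. The labels name no strain, age, sex or antibiotic and do not say what 14D stands for. The protocol pools cells by condition, and no label ties a sample number to an animal. The p-values therefore reflect the scatter of these 8 samples alone. Part of that scatter goes with the sex-linked genes Xist and Uty, described below, which the main test does not model. The rest may be technical.

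Interferons are cytokines that bind surface receptors and act through the kinases JAK1 and TYK2 and transcription factors such as STAT2 and IRF9, which switch on a set of antiviral genes. Type III interferon acts largely on epithelium, and interferon gamma also induces the genes of MHC class I and class II antigen presentation, the latter through the coactivator CIITA. In the gut, commensal microbes maintain a tonic level of this programme, and intestinal epithelial cells can carry MHC class II.

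The samples had a median of 8640 to 14964 transcripts per cell in Abx_14D and 11580 to 17994 in GF, with medians of 0.213% to 0.386% mitochondrial transcripts over the 8 samples. Epithelial identity was checked on Epcam, at 912 to 1323 CPM (transcript counts scaled to a total of 1000000 per sample), against Ptprc, which encodes CD45, at 3.11 to 17.4 CPM. The 12 immune markers summed to 16 to 22 CPM in Abx_14D and 9.23 to 24.6 CPM in GF. Xist, the RNA of the inactive X chromosome, was at 1472 to 1846 CPM in the samples numbered 1 and 2 of both groups and at 17.1 to 19.7 CPM in those numbered 3 and 4, so the 2 groups were balanced for it. Uty, a Y-linked gene, averaged 1.28 CPM in the former and 217 CPM in the latter, a ratio of 0.592% on average and 0.716% in the highest sample. For Ddx3y, another Y-linked gene with a close X-linked relative, the ratio was 5.31% on average and 6.53% in the highest sample.

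With the counts of all cells summed per sample, 15 genes were higher and 137 lower in GF among 13940 tested (edgeR's quasi-likelihood test, adjusted p under 0.05), which is 0.108% and 0.983% of the genes, or 152 in all (1.09%). Of the 137 lower genes, 58 (42.3%) belonged to 4 lists of interferon response, interferon signalling, MHC class II and MHC class I genes, and none of the 15 higher genes did. These lists held 45, 23, 7 and 18 tested genes, some of them shared, and were chosen with earlier results of these data known. The median log2 change over all tested genes was 0.02. Without GF sample 4 the test called 39 genes higher and 245 lower. In sums over cells, fewer cells with a transcript and fewer transcripts per cell cannot be told apart.

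**Figure D1:**
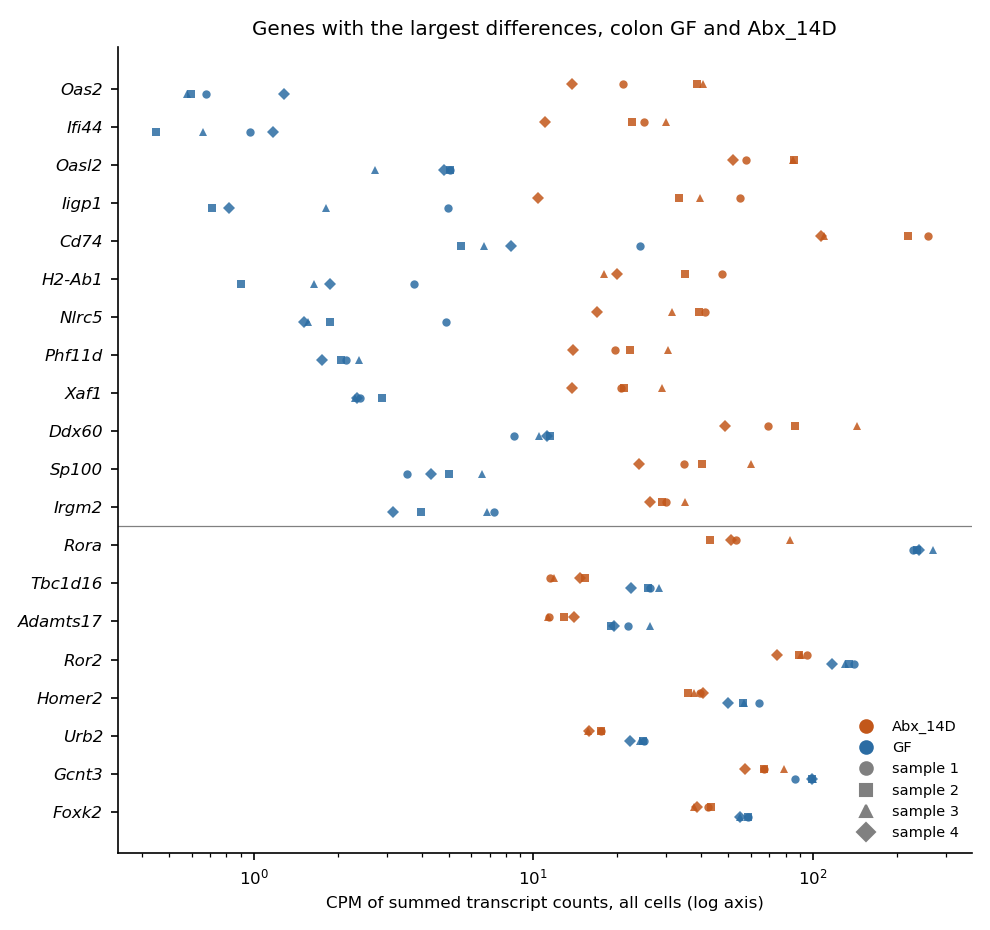
CPM on a log axis for the named genes with the largest differences over all cells, 12 lower (above the line) and 8 higher (below it) in GF. Each point is 1 of 4 Abx_14D (orange) or 4 GF (blue) samples. Genes were named only where the points of the groups do not overlap, so this separation follows from the choice.

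The interferon response list, chosen with earlier results of these data known, fell as a block. Of its 46 genes 45 were tested, and 43 of these were lower and none higher in GF, against 0.983% of all genes lower; the remaining tested members, Mx1 and Gbp2, had log2 changes of -2.50 (adjusted p = 0.11) and -1.51 (adjusted p = 0.16) in edgeR. The median change of the list was -2.33 on the log2 scale, beside 0.02 over all tested genes. Summed over the list, the Abx_14D samples were at 1480, 1565, 1843 and 1083 CPM and the GF samples at 529, 502, 465 and 513 CPM. Every Abx_14D sample lay above every GF sample, and the GF samples lay closer together (SD 27.4) than the Abx_14D samples (SD 314). Non-overlapping ranges with GF below were found for 44 of the 45 tested members, against 3.17% of all genes.

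The promoters of this list are shown because its members moved together. RefSeq promoter windows (GRCm38.p6, 250 bases before to 50 after the start site) were matched by symbol for 32 of the 46 genes. The core of the interferon-stimulated response element, a site through which interferon switches on its target genes, was searched as GAAA, any 2 bases and GAAA on both strands, with overlapping matches allowed. It was present in 19 of the 32 windows (59.4%), against 1079 of 27025 symbols (3.99%). Of those 19 genes 17 were called lower, beside 43 of the 45 tested genes of the whole list, so the match did not mark out the called genes. It was in none of 7 matched MHC class II promoters and in 4 of 16 MHC class I promoters. The 4 stretches below end before the start site, run 5′ to 3′ on the strand of the gene, and show the matched letters in capitals. A match is a description of these letters and not a measured binding site.
Isg15 (chr4:156200865-156200906, minus strand): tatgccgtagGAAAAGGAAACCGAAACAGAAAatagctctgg
Ifit1 (chr19:34640775-34640823, plus strand): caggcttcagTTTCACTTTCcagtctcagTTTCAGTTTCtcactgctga
Oas1a (chr5:120907526-120907555, minus strand): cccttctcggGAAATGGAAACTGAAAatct
Rsad2 (chr12:26456553-26456582, minus strand): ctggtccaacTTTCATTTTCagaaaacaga

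Among the effectors, Oas2, which makes the messenger that activates RNase L, was at 21, 38.6, 40.7 and 13.8 CPM in the Abx_14D samples and at 0.675, 0.599, 0.576 and 1.29 CPM in GF. The lowest Abx_14D sample, number 4, remained above all GF samples. Oas2 fell by 5.29 ± 0.40 (SE) on the log2 scale (edgeR adjusted p = 1.7e-05), the largest fall among the named genes.
Oasl2, an oligoadenylate synthetase-like protein with ubiquitin-like domains, went from 57.7, 85.7, 85.3 and 51.7 CPM to 5.06, 5.06, 2.71 and 4.80 CPM. It fell by 3.96 ± 0.23 (edgeR adjusted p = 7.3e-06). Ifi44 fell by 4.83 ± 0.35 from 11 to 29.8 CPM, and Iigp1, an immunity-related GTPase, by 3.94 ± 0.58 from 10.4 to 55 CPM, with GF samples at 0.712 to 4.95 CPM.

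Isg15, the ubiquitin-like modifier, was at 5.74, 6.12, 12.9 and 3.81 CPM in Abx_14D and at 0.788, 0.787, 0.411 and 0.351 CPM in GF, a fall of 3.42 ± 0.40. Rtp4, a chaperone-like antiviral protein, fell by 3.47 ± 0.24 and Oas1a by 2.17 ± 0.14. Rsad2, which encodes viperin, fell by 1.36 ± 0.22. Of the cytosolic RNA sensors, Dhx58, which encodes LGP2, fell by 2.44 ± 0.29, Rigi by 1.11 ± 0.16 and Ifih1, which encodes MDA5, by 0.82 ± 0.15. Oas, Ifit, Gbp and Irgm genes have close relatives in the genome, and the sources used here do not give how reads shared between relatives were counted.
Further genes among the largest falls were Phf11d (by 3.34 ± 0.23), Xaf1 (by 3.06 ± 0.22), the helicase Ddx60 (by 3.05 ± 0.28), the nuclear body protein Sp100 (by 3.04 ± 0.27) and the GTPase Irgm2 (by 2.47 ± 0.22). Their Abx_14D samples ranged from 13.8 CPM in Xaf1 to 144 CPM in Ddx60.

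In the pathway above these genes, no receptor or kinase was called, and the genes called were transcription factors. Of 23 tested genes of receptors and signalling, 5 were lower and none higher, and the list median was -0.11. Irf7, Irf9 and Stat2 are among those also counted in the interferon response list. Irf7, which amplifies interferon production, was at 25.4, 33.8, 50.2 and 33.3 CPM in Abx_14D and at 6.79, 8.76, 5.35 and 3.75 CPM in GF. It fell by 2.46 ± 0.25 on the log2 scale (edgeR adjusted p = 0.00015).
Irf9 fell by 1.35 ± 0.14, Stat2 by 1.16 ± 0.19 and Irf1 by 0.63 ± 0.12. The type I receptor chain Ifnar1 was at 34.2 to 41.4 CPM in Abx_14D and 36.3 to 38.4 CPM in GF (log2 change -0.02 ± 0.10). The type III receptor chain Ifnlr1 was at 5.61 to 8.62 and 6.33 to 8.4 CPM (0.02 ± 0.18), and Jak1 at 204 to 229 and 213 to 235 CPM (0.03 ± 0.08). For these 3 genes the groups overlapped.

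MHC class II genes had the largest median fall of any list. Of 10 listed genes 7 were tested and 6 were lower, with a median of -3.86 on the log2 scale. Cd74, the invariant chain that escorts class II molecules, was at 259, 219, 110 and 107 CPM in Abx_14D (174 ± 76.8, SD, n = 4) and at 24.2, 5.51, 6.66 and 8.31 CPM in GF (11.2 ± 8.74). Within Abx_14D the samples numbered 1 and 2, which have high Xist, lay above those numbered 3 and 4, and in GF sample 1 stood above the others.
Cd74 fell by 3.92 ± 0.46 (edgeR adjusted p = 0.00046). Within the samples numbered 1 and 2 the log2 ratio of mean CPM was -4.01, and within those numbered 3 and 4 it was -3.86. The class II chains H2-Ab1, H2-Aa and H2-Eb1 fell by 3.86 ± 0.42, 3.77 ± 0.51 and 4.04 ± 0.47. Ciita, the coactivator of class II genes, was at 21, 18.8, 11 and 8.71 CPM against 2.93, 0.974, 1.73 and 1.05 CPM, and fell by 3.11 ± 0.37. H2-DMb1, which helps load peptide, fell by 4.0 ± 0.40, and its partner H2-DMa had a log2 change of -0.80 ± 0.24 (adjusted p = 0.23).
Ptprc was detected in 78 of the 3852 Abx_14D cells, and 26 of the 2199 Abx_14D cells with a Cd74 transcript had one. Without the 9 cells that passed an immune marker gate, an alternative chosen after seeing the data, 43 interferon response and 6 MHC class II genes were still called lower.

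MHC class I genes fell by less. Of 18 tested genes, 8 were lower and none higher, with a median of -0.70. The summed level of the list was 1966, 1993, 1739 and 1583 CPM in Abx_14D and 1218, 1154, 1195 and 1367 CPM in GF, with no overlap. Nlrc5, the class I coactivator, fell by 3.60 ± 0.37, the immunoproteasome subunits Psmb8 and Psmb9 by 2.50 ± 0.24 and 1.77 ± 0.18, and the peptide transporter Tap1 by 1.5 ± 0.23.
B2m, the shared light chain of class I molecules, was at 387, 380, 307 and 269 CPM in Abx_14D and at 134, 132, 103 and 124 CPM in GF, a fall of 1.44 ± 0.13 (edgeR adjusted p = 6.7e-05). The heavy chains H2-K1 and H2-D1 fell by 1.00 ± 0.11 and 0.95 ± 0.12. They are near-identical genes, so the split between them is uncertain.

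**Figure D2:**
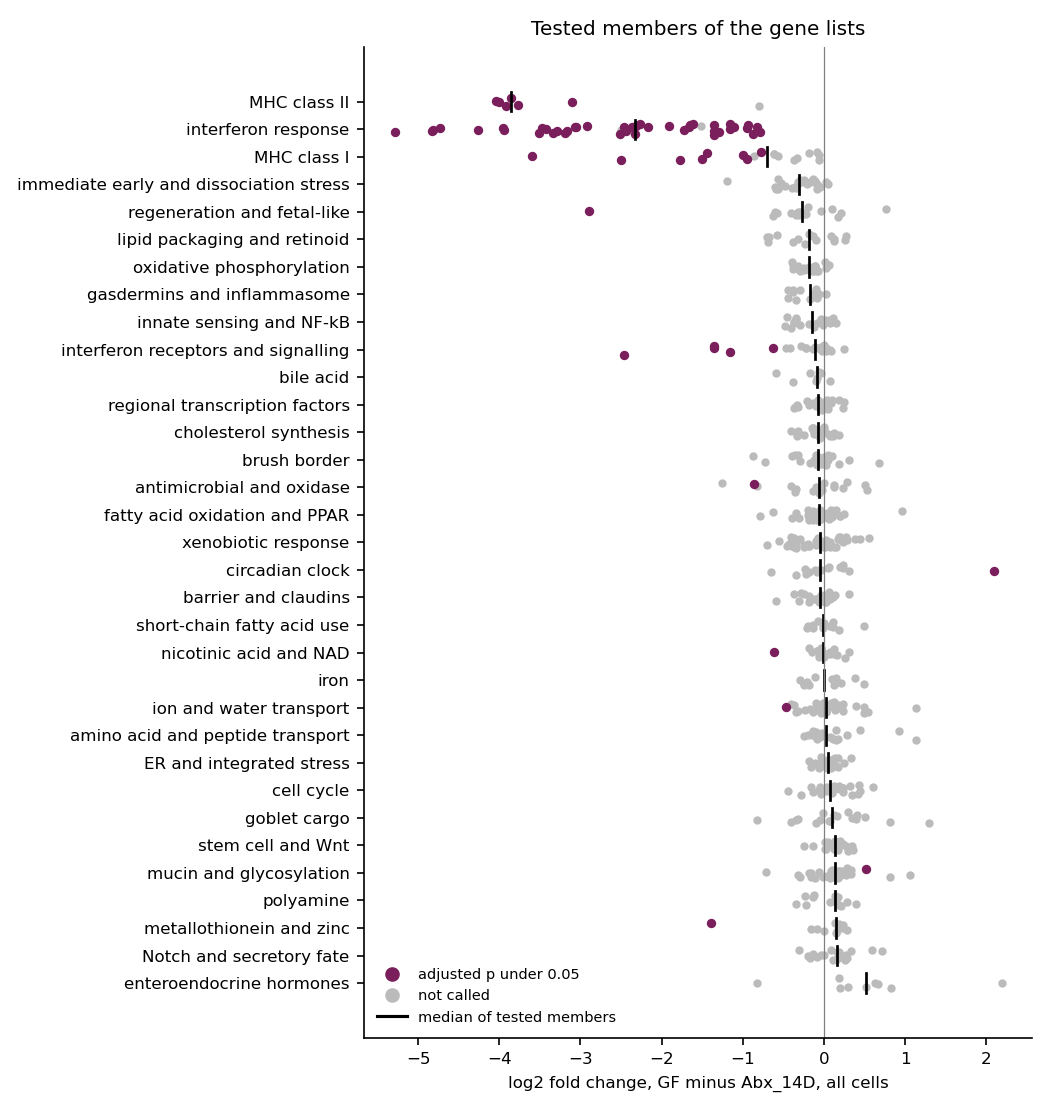
Log2 fold change (GF minus Abx_14D, all cells) of every tested member of 33 gene lists, with a black bar at the list median. Purple points passed an adjusted p of 0.05; 43 interferon response, 6 MHC class II and 8 MHC class I genes lie below 0, and Rora of the clock list is the purple point at 2.09.

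Rora had the largest rise among the named genes. It encodes the nuclear receptor ROR alpha, which activates the clock gene Bmal1 and also acts in lipid metabolism and immune cells. It was at 53.4, 43.1, 83.2 and 51.1 CPM in Abx_14D (57.7 ± 17.5, SD, n = 4) and at 229, 236, 270 and 241 CPM in GF (244 ± 17.7). The highest Abx_14D sample, number 3, lay well below the lowest GF sample.
Rora rose by 2.09 ± 0.17 on the log2 scale (edgeR adjusted p = 3.2e-05), and the log2 ratio of means was 2.27 within the samples numbered 1 and 2 and 1.93 within those numbered 3 and 4. It was the only 1 of 16 tested clock genes called, and the median of that list was -0.05. Bmal1 was not among the 16, because the data hold it under the symbol Arntl. Arntl was at 86.2 to 106 CPM in Abx_14D and 70.5 to 89.1 CPM in GF, and the groups overlapped. The clock repressor Per2 was at 35.8 to 47.7 CPM in Abx_14D and 35.7 to 58.4 CPM in GF (log2 change 0.23 ± 0.15), and Nr1d1, a repressor that competes with ROR proteins, at 23.2 to 38.7 and 12.3 to 34.2 CPM (-0.23 ± 0.27). Per1 had a log2 ratio of 0.55 within the samples numbered 1 and 2 and of -0.86 within those numbered 3 and 4. The sources used here give no sampling times.

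The other named rises were smaller. Ror2, a receptor tyrosine kinase for Wnt5a, went from 95.4, 89.2, 90.9 and 74.3 CPM to 141, 135, 131 and 117 CPM and rose by 0.58 ± 0.10 (edgeR adjusted p = 0.0082). Tbc1d16, a Rab GTPase-activating protein, rose by 0.94 ± 0.13 and Adamts17, a secreted metalloproteinase, by 0.80 ± 0.14. Homer2, a scaffold protein, rose by 0.57 ± 0.11, Urb2 by 0.53 ± 0.11 and the transcription factor Foxk2 by 0.49 ± 0.09. Gcnt3, which builds branched mucin O-glycans, went from 66.9, 66.8, 79.2 and 57.3 CPM to 86.8, 99.5, 100 and 99.6 CPM. It rose by 0.52 ± 0.11 and was 1 of 31 tested mucin and glycosylation genes called.

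Single members of other lists were lower in GF. Lypd8, a secreted protein that keeps flagellated bacteria off the colon epithelium, was at 332, 505, 580 and 490 CPM in Abx_14D and at 272, 251, 256 and 272 CPM in GF, and fell by 0.86 ± 0.14 (edgeR adjusted p = 0.0059). It was the only 1 of 17 tested antimicrobial and oxidase genes called, and the others included Reg3g at 5.90 to 11.9 against 6 to 11 CPM. Lypd8 is also a marker of absorptive cells, whose mean share was 8.75% in Abx_14D and 7.37% in GF. Within classes its mean went from 2112 to 1320 CPM in absorptive and from 164 to 113 CPM in goblet cells. It went from 152 to 99.4 CPM in stem and from 253 to 148 CPM in cycling cells, and was called in stem cells only. In tuft cells it was at 81 and 80 CPM. The part of the absorptive share in the all-cell result was not tested. Ly6a, which encodes the regeneration marker Sca-1 and is itself induced by interferon, fell by 2.90 ± 0.31 from 11.5 to 28.7 CPM.
Nampt, the rate-limiting enzyme of NAD salvage, was at 66.3, 70.9, 75.3 and 68.1 CPM against 50.4, 42.6, 43.7 and 47.3 CPM. It fell by 0.61 ± 0.10 (edgeR adjusted p = 0.0049) and was the only 1 of 18 tested nicotinic acid and NAD genes called. Car1, a colonic carbonic anhydrase, fell by 0.47 ± 0.10, with an adjusted p of 0.034, and Slc30a10, a manganese exporter, by 1.39 ± 0.28, with 0.03. With each cell weighted equally, the change of Car1 was 0.19 and was not called.

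No member was called in 26 of the 37 lists, among them fatty acid oxidation, cholesterol synthesis, short-chain fatty acid use, regional transcription factors, xenobiotic response, bile acid, oxidative phosphorylation, stem cell and Wnt, cell cycle and claudins. Their 466 tested genes held none called by edgeR with library-size or TMM scaling or by limma-voom. DESeq2 called 10 of them, where it called 72 higher and 249 lower among all 13940 genes. An unadjusted edgeR p under 0.05 was found for 66 of the 466, where 1512 of all 13940 genes had one. Without GF sample 4, edgeR called 4 of them, Cox5a, Cox6c and Uqcrfs1 of the respiratory chain and the inflammasome adaptor Pycard. Lgr5, the receptor that marks colon stem cells, was at 368, 269, 171 and 191 CPM in Abx_14D and 349, 379, 258 and 283 CPM in GF (0.34 ± 0.21). Slc5a8, a short-chain fatty acid and nicotinate transporter, was at 204 to 235 and 197 to 274 CPM (0.07 ± 0.10). Immediate early genes, which respond to dissociation, had a list median of -0.30 with none of 26 called and 8 at an unadjusted p under 0.05.

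Cells were then divided by marker scores, the mean over markers of log(1 + counts per 10000), into absorptive (627 cells), goblet (775), stem (3338), cycling (539), enteroendocrine (38) and tuft (203) classes. A further 2450 cells passed no gate, 88 passed several and 9 passed the immune gate. The gates were set after seeing the score distributions, and 23.9% of absorptive and 24.1% of cycling cells lay within 0.1 of the gate, against 10.1% of stem and 2.97% of goblet cells. Every class held at least 7 of its own markers at 20 CPM, but these markers chose the classes. For stem markers the count did not set the class apart. Absorptive, goblet, cycling and tuft cells also held 7 of the 8 at 20 CPM. Summed, the stem markers were at 5720 CPM in stem cells and at 734, 2357, 3619 and 2138 CPM in those 4 classes.
The shares of the classes did not pass a test. Absorptive cells made up 6.10%, 10.3%, 9.78% and 8.78% of cells in Abx_14D and 8.17%, 8.21%, 6.41% and 6.68% in GF. Cycling cells made up 6.84%, 5.68%, 6.09% and 4.62%, and 8.24%, 6.25%, 6% and 8.31%. Tuft cells made up 2.33%, 2.32%, 1.48% and 2.77%, and 2.31%, 2.74%, 3% and 3.26%.
The ranges overlapped in all 6 classes tested. Two-sided exact permutation tests over 70 arrangements gave p from 0.171 (cycling) to 0.83 (stem), where the smallest possible is 0.0286, and adjusted p from 0.343. The mean difference was -1.38 percentage points for absorptive, 1.49 for goblet, -0.885 for stem and 1.39 for cycling cells. The stem difference turned to 0.267 with the gate doubled, 2.52 without Abx_14D sample 1 and 1.26 without GF sample 4, and the goblet difference was 0.447 without GF sample 3 and 2.31 without GF sample 1.

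**Figure D3:**
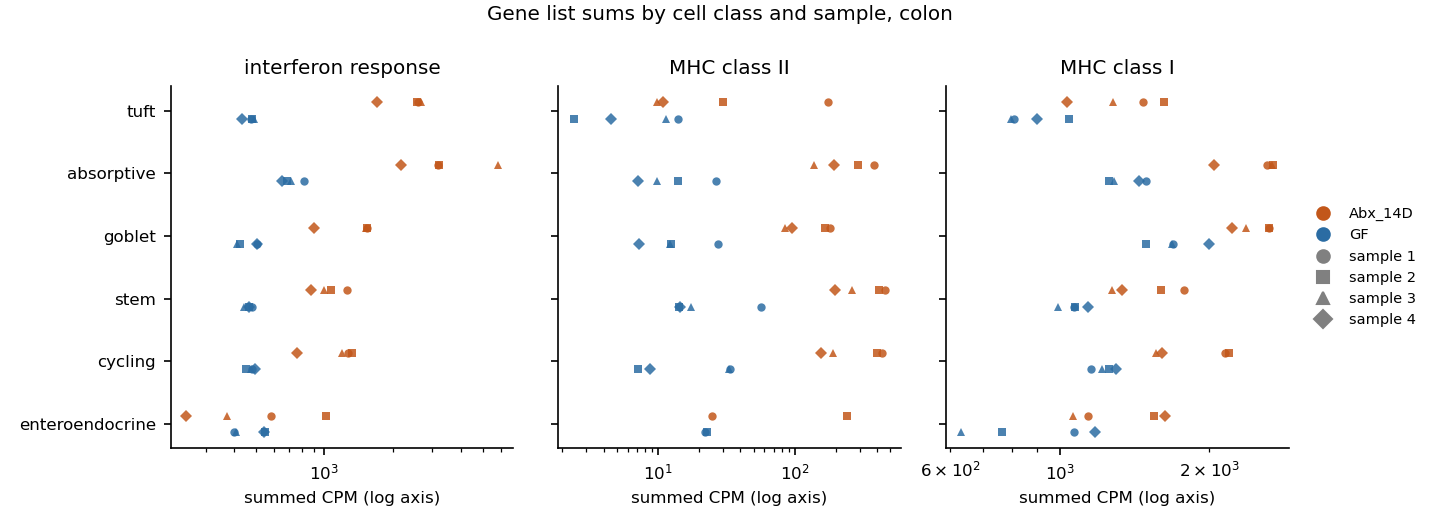
Summed CPM (log axis) of the interferon response, MHC class II and MHC class I lists in 6 cell classes, 1 point per sample, Abx_14D orange and GF blue; samples at 0 are not drawn. The groups separate in every class for interferon response except the enteroendocrine class, which held 1 to 9 cells per sample.

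In absorptive cells, 99 genes were lower and 7 higher in GF among 9582 tested (1.03% and 0.0731%), or 106 in all (1.11%). Of 42 tested interferon response genes 38 were lower, with a median of -2.76. The list summed to 3162, 3217, 5833 and 2188 CPM in Abx_14D and 817, 682, 710 and 648 CPM in GF, the highest sums of the 4 classes tested in both groups. Sample 3 of Abx_14D stood above the others.
Slfn5, a Schlafen family member, was at 44.8, 34.4, 135 and 19.9 CPM in Abx_14D and had no count in any GF sample. It was at least 103-fold lower, taking 3 counts in the summed GF samples as the limit of detection. Oas2 had 2 counts in GF and a ratio of summed CPM of 182 (95% counting interval 49.9 to 1506), and H2-Ab1 had 1 count and a ratio of 182 (32.1 to 7215). Gbp3, a guanylate-binding protein, had 3 counts and a ratio of 50.3 (16.8 to 247). These bounds and intervals cover counting error only. Ifi44 fell by 5.74 ± 0.55 and Iigp1 by 5.38 ± 1.04.
Of 6 tested MHC class II genes 5 were lower and of 17 class I genes 10. B2m was at 659, 610, 704 and 471 CPM against 225, 159, 126 and 182 CPM. Ly6a went from 61, 65.7, 177 and 55.2 CPM to 11.2, 5.73, 6.14 and 12.5 CPM and fell by 3.32 ± 0.41.
The named rises were Rora (by 2.27 ± 0.38), the laminin chain Lama3 (by 1.90 ± 0.42), the sodium-calcium exchanger Slc24a3 (by 1.40 ± 0.26), the proline transporter Slc6a20a (by 1.36 ± 0.28) and the selenium carrier Selenop (by 1.26 ± 0.19). Selenop was at 89.6, 150, 104 and 126 CPM in Abx_14D and 226, 229, 379 and 310 CPM in GF (edgeR adjusted p = 0.0018).

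In goblet cells, the mucus-secreting class, 58 genes were lower and 13 higher among 10470 tested (0.554% and 0.124%). Of 34 tested interferon response genes 27 were lower, with a median of -1.62, and their sum was 1539, 1547, 1534 and 897 CPM against 504, 426, 413 and 504 CPM. Without Abx_14D sample 3 the count of lower interferon response genes was 17. Oas2 fell by 5.61 ± 0.37 and Oasl2 by 4.38 ± 0.50. Nlrc5 fell by 4.03 ± 0.53, Phf11d by 3.67 ± 0.42, Cd74 by 3.65 ± 0.44 and Sp100 by 2.82 ± 0.34. Without Abx_14D sample 3 or GF sample 3, 39 and 45 genes in all were called, where 71 (0.678%) were called with all samples.
The axon guidance receptor Robo1 was at 4.44, 12, 2.40 and 2.74 CPM in Abx_14D and 33, 35.4, 12.2 and 26.4 CPM in GF. It rose by 2.28 ± 0.43 (edgeR adjusted p = 0.017), and its highest Abx_14D sample, number 2, lay just below its lowest GF sample, number 3. Cacna1h, a T-type calcium channel, rose by 1.86 ± 0.36, the procollagen peptidase Adamts3 by 1.64 ± 0.31, Rora by 1.56 ± 0.28, Myrip, which links secretory granules to myosin, by 1.27 ± 0.19 and the growth factor Pdgfd by 1.13 ± 0.21. The membrane mucin Muc1 fell by 2.18 ± 0.42 from 5.48 to 14.6 CPM. The main secreted mucin Muc2 was at 7201, 23372, 23940 and 18856 CPM in Abx_14D and 30659, 25148, 36984 and 27144 CPM in GF (0.71 ± 0.28, adjusted p = 0.46); Muc2 is a marker that chose the class, and sample 1 of Abx_14D stood apart.

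In stem cells, 104 genes were lower and 24 higher among 11825 tested (0.879% and 0.203%). Of 34 tested interferon response genes 29 were lower, with a median of -1.69. Among called genes with a full symbol and 20 CPM or more in Abx_14D, the largest falls were of MHC class II: H2-Eb1 fell by 4.40 ± 0.46, H2-Ab1 by 4.08 ± 0.39 and Cd74 by 3.94 ± 0.48, and 6 of 7 tested class II genes were lower. Cd74 was at 296, 279, 178 and 122 CPM in Abx_14D and 34.6, 4.24, 6.45 and 6.28 CPM in GF. GF sample 1 stood above the other GF samples and below all Abx_14D samples.
Oasl2 fell by 3.87 ± 0.24, Nlrc5 by 3.27 ± 0.39 and Ciita by 3.08 ± 0.29. Without GF sample 4, 80 genes were higher and 225 lower. Without Abx_14D sample 2 or GF sample 1, 82 and 85 genes in all were called, where 128 (1.08%) were called with all samples.
Rora was at 52.1, 76, 82.3 and 102 CPM in Abx_14D stem cells and 339, 332, 403 and 380 CPM in GF, a rise of 2.25 ± 0.16 (edgeR adjusted p = 9.2e-07). Other rises were Sobp (by 0.83 ± 0.18), Pgs1, which acts in cardiolipin synthesis (by 0.82 ± 0.15), Rims4 (by 0.78 ± 0.16) and the p53 target Aen (by 0.72 ± 0.16). The stem markers themselves were not called, with Lgr5 at 506 to 622 CPM in Abx_14D and 613 to 676 CPM in GF (0.20 ± 0.09). These markers chose the class, so the gate sets part of their level within it.

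In cycling cells, 30 genes were lower and 4 higher among 9288 tested (0.323% and 0.0431%). This class held 30 to 129 cells per sample. Of the 46 listed interferon response genes only 18 passed the count filter and were tested. Of these 8 were lower, with a median of -1.09. More members were tested in the other tested classes, so the medians of the classes cover different genes and are not compared. Cd74 was at 282, 250, 145 and 110 CPM in Abx_14D and 16.5, 2.39, 20.8 and 1.09 CPM in GF and fell by 4.25 ± 0.44 (edgeR adjusted p = 6.5e-05). H2-Ab1 fell by 4.20 ± 0.55, Sp100 by 3.83 ± 0.44, Oasl2 by 3.53 ± 0.34, Nlrc5 by 3.52 ± 0.38 and Psmb8 by 3.40 ± 0.34.
The 4 higher genes were Rora (by 2.93 ± 0.31), Dach2 (by 1.58 ± 0.33), the fatty acid regulator Acacb (by 1.35 ± 0.26) and the protocadherin Pcdh17 (by 0.74 ± 0.14). Without GF sample 4 the test called 70 genes in all, where 34 (0.366%) were called with all samples. The count of lower interferon response genes was 20 without Abx_14D sample 4, 16 without GF sample 3 and 16 without GF sample 4.

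Tuft cells, chemosensory cells that release interleukin 25, and enteroendocrine cells, which secrete hormones, were too few for a test across genes. In tuft cells (8 to 44 per sample) the interferon response sum was 2588, 2572, 2671 and 1705 CPM in Abx_14D and 473, 482, 490 and 434 CPM in GF. Oas2 was at 215, 255, 195 and 206 CPM against 17.7, 14.5, 11.5 and 0 CPM. The MHC class II sum, at 175, 29.6, 9.75 and 10.9 CPM against 14.1, 2.42, 11.5 and 4.57 CPM, overlapped. The median depth of the class was 5739 transcripts per cell, and its immune markers, of which tuft cells themselves express Ptprc, summed to 368 CPM.
Rora in tuft cells was at 9.70, 0, 48.7 and 32.6 CPM in Abx_14D and 343, 136, 249 and 315 CPM in GF. In enteroendocrine cells it was at 2793, 10.9, 8371 and 197 CPM in Abx_14D and 3071, 3141, 5295 and 2818 CPM in GF, from 1 to 9 cells per sample. The mean share of enteroendocrine cells was 0.379% in Abx_14D and 0.571% in GF. They gave 568, 1, 291 and 4 Rora counts in the Abx_14D samples, where all cells together gave 3101. In GF they gave 560, 276, 494 and 235 counts, where all cells gave 17751. The 291 counts in Abx_14D sample 3, the highest of its group over all cells, came from 2 cells. The all-cell change without enteroendocrine cells was not tested. Rora was higher in GF in each of the 4 tested classes, which leave these cells out.

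**Figure D4:**
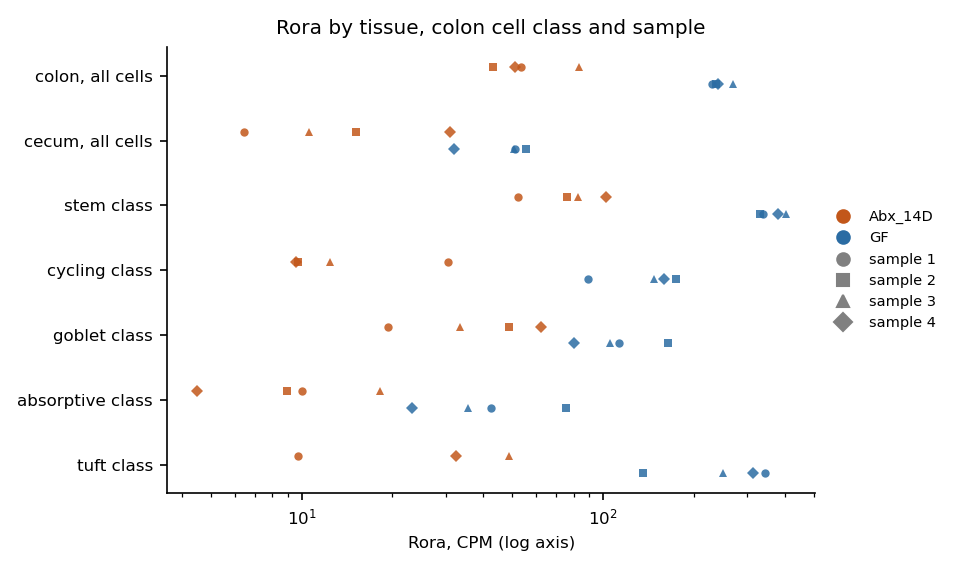
Rora in CPM (log axis) over all cells of colon and cecum and in 5 colon classes, 1 point per sample, Abx_14D orange and GF blue. GF samples lie above Abx_14D samples in each row, a tuft sample at 0 is not drawn, and colon levels of both groups lie mostly above cecal ones.

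Whether the difference between groups itself differed between absorptive and cycling cells was tested with the sample as a block. Of 10321 genes 1 was called (0.00969%). Hdac9, a histone deacetylase, was at 113, 112, 72.7 and 146 CPM in absorptive cells of Abx_14D and 138, 152, 236 and 204 CPM in GF (log2 change 0.67). In cycling cells it was at 73.5, 85.8, 24.9 and 71.9 CPM and 29.2, 17.7, 19.7 and 17.5 CPM (-1.57). The difference of the changes was 2.17 ± 0.29 (edgeR adjusted p = 0.011), and the test called 3 genes with TMM scaling and 4 with limma-voom. It called none without Abx_14D sample 1, 2 genes without GF sample 2 and 3 genes without Abx_14D sample 2 or without GF sample 3.
None of the interferon response genes passed this test, although 32 of 42 had the more negative change in absorptive cells. Ly6e, a surface protein, and Lgals3bp, a secreted glycoprotein, were among the smallest p, with differences of -1.67 ± 0.30 (adjusted p = 0.087) and -1.14 ± 0.20 (adjusted p = 0.081).

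**Figure D5:**
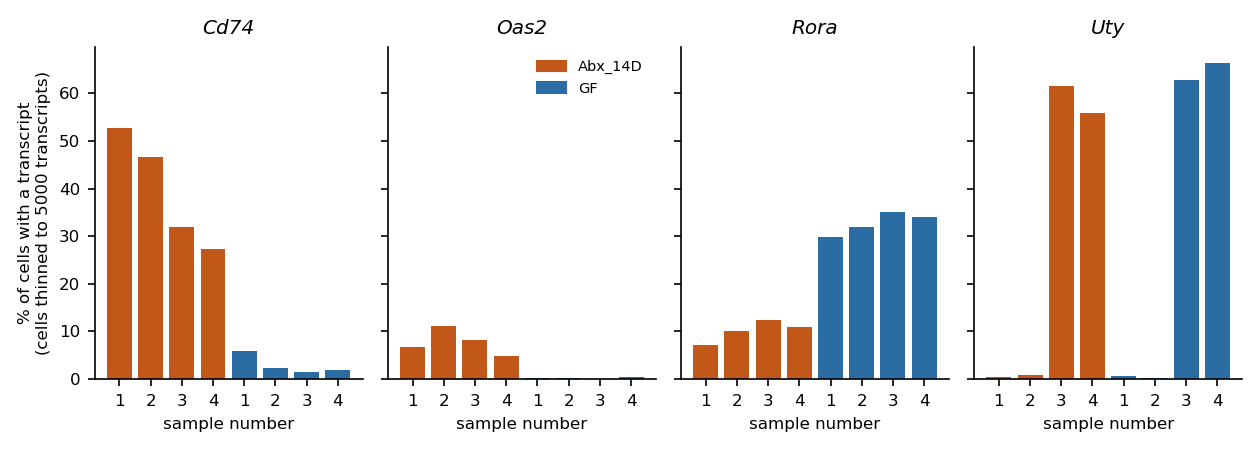
Percent of cells with at least 1 transcript of Cd74, Oas2, Rora and Uty in each of the 8 colon samples, after thinning cells to 5000 transcripts. Bars start at 0; Abx_14D is orange and GF blue, and Uty separates the samples numbered 1 and 2 from those numbered 3 and 4 in both groups.

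The share of cells with a transcript was compared after thinning every cell to 5000 transcripts, which left out 98 to 241 shallower cells per sample. Cd74 was then found in 52.8%, 46.7%, 32% and 27.3% of Abx_14D cells and in 5.92%, 2.32%, 1.57% and 1.82% of GF cells. Before thinning the shares were 67.2%, 58.3%, 40.8% and 39.8%, and 12.4%, 5.89%, 6.55% and 4.75%. Uty, in samples 1 and 2, where it was at 0.936 to 1.55 CPM, was found in 0.319% to 0.778% of thinned cells.
How far transcripts from other cells make up the Cd74 found in GF was not tested. Oas2 was found in 6.75%, 11.2%, 8.29% and 4.95% of thinned Abx_14D cells and in 0.324%, 0.160%, 0 and 0.405% of GF cells, where 0 of 635 thinned cells allows a thinned share of up to 0.472%. Before thinning, Oas2 was found in 1.01%, 0.912%, 0.955% and 0.89% of GF cells and Uty in 1.61% to 2.39% of cells of samples 1 and 2 of GF. By class, without thinning, Oas2 was found in 0.297% of stem, 2.51% of goblet and 7.83% of tuft cells of GF. Rora was found in 7.23%, 10.1%, 12.3% and 11% of thinned Abx_14D cells and in 29.9%, 31.9%, 35% and 34.0% of thinned GF cells.
By class and without thinning, Cd74 was found in 69.2% of stem, 71.2% of cycling, 53.8% of absorptive and 35.4% of goblet cells of Abx_14D. In GF it was found in 8.42%, 9.90%, 8.70% and 6.38% of the same classes, at higher median depths.

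The same contrast was set beside the cecum of the same groups. The interferon response sum was 1158, 1407, 1962 and 1022 CPM in cecal Abx_14D and 509, 488, 483 and 586 CPM in cecal GF. The MHC class II sum was 83.7, 72.9, 51.7 and 73.7 CPM in cecal Abx_14D, below every colon Abx_14D sample (396, 330, 165 and 168 CPM), and 15.4, 19, 12.2 and 15.3 CPM in cecal GF. Rora was at 6.42, 15.2, 10.6 and 31.1 CPM and 50.9, 55.4, 50.6 and 32 CPM.
A test of the difference between colon and cecum in the change from Abx_14D to GF called 0 of 13945 genes with edgeR, with TMM scaling and with limma-voom, and 776 genes had an unadjusted p under 0.05. For Cd74 the difference of the changes was -0.84 ± 0.63 (adjusted p = 0.99), and for Rora it was 0.50 ± 0.45 (adjusted p = 0.99). All 7 tested MHC class II genes had the more negative change in the colon, with a median difference of -0.84 and 2 at an unadjusted p under 0.05. All 30 tested cell cycle genes had the more positive change in the colon, with 16 at an unadjusted p under 0.05. Their median difference was 0.59, beside 0.04 over all genes tested. Such a difference can hold a rise in the colon, a fall in the cecum or both. Ccna2 of this list was at 12.3 to 17 CPM in colon Abx_14D and 17.9 to 22.9 CPM in colon GF (edgeR adjusted p = 0.285). In the cecum it was at 42 to 49.2 and 29.4 to 31.3 CPM. The part played by the share of cycling cells in each tissue was not tested. Homer2 had the smallest p, at 35.9 to 40.7 CPM in colon Abx_14D and 50 to 64.3 CPM in colon GF, and at 15.3 to 29.2 and 8.03 to 14.6 CPM in the cecum (difference 1.63 ± 0.28, adjusted p = 0.13).

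The colon control samples kept 50 cells and the Abx_4D samples 1026, of which 857 came from sample 1, so they are described only. With all 50 control cells pooled, the interferon response list was at 1579 CPM (95% counting interval 1244 to 1976), the MHC class II list at 166 CPM (71.7 to 327) and Rora at 20.8 CPM from 1 count (0.526 to 116). In sample 1 of Abx_4D the interferon response list was at 1811 CPM, the MHC class II list at 1005 CPM and Rora at 35.3 CPM. These values lay on the side of the Abx_14D samples for the interferon response list, the MHC class II list and Rora. The MHC class II list was at 165 to 396 CPM in colon Abx_14D and 14.7 to 43.4 CPM in colon GF. The kept control cells lay close to the depth limit, with sample medians of 613 to 746 transcripts. Control barcodes below the limit had medians of 54 to 240, and the compared samples 8640 or more. Whether the control counts hold transcripts from other cells was not tested, and cell numbers allow no comparison of the groups.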

How the data were processed

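The deposited matrix holds whole-number transcript counts per gene and cell (33696 genes, 24609 barcodes), and the authors' cell table gives the loaded sample of each barcode. The submitters' processing notes name Seurat and mm39. For the aligner, the use of strand and reads shared by related genes, the method is not given in the sources used here. Counts of cells with at least 500 transcripts were summed per sample and class and tested with edgeR 4.0.16 (R 4.3.3; quasi-likelihood test, library-size scaling, filterByExpr, Benjamini-Hochberg over all genes tested, threshold 0.05), and CPM was computed from the same sums. Totals were 6613124 to 30127065 transcripts per sample. The fit was tested on simulated data. Alternatives used DESeq2 1.42.0 and limma 3.58.1. Doublets were not called or removed, and 622 cells had wells that recurred in another sublibrary.
Genes were named by rule: of those called, at 20 CPM or more in the higher group and with ranges that do not overlap, the 12 largest changes each way over all cells and 6 each way per class, plus 4 genes of smallest p per list and 6 per interaction. Other genes were chosen after their values were seen, and some genes are not reported here. The groups compared, gene lists and marker lists were chosen with earlier results of these data known. Confidence intervals are 95% and exact, or Wilson for shares of cells, and cover counting error only.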

Additional observations from a re-analysis of the deposited data

Results flagged for a closer look

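Of 408 groups of 4 samples looked at among the named genes, 27 had 1 sample far from the other 3, and chance alone flags about 1 in 20 such groups. GF sample 1 was high for Cd74 over all cells (24.2 CPM), in goblet cells (14.4 CPM) and in stem cells (34.6 CPM), and for Nlrc5 (4.88 CPM), while remaining below every Abx_14D sample. GF sample 1 was also the single low sample for Gcnt3 (86.8 CPM). Other GF samples that stood apart were those for Oas2 (1.29 CPM), Oasl2 (2.71 CPM) and Xaf1 (2.88 CPM).
In absorptive cells of GF, H2-Ab1 (0.409 CPM) and Gbp3 (1.16 CPM) each had counts in 1 sample only. Lama3 in absorptive cells of Abx_14D had 1 sample at 48.5 CPM, and Rora in cycling cells of Abx_14D had 1 at 30.5 CPM. Abx_14D sample 3 was high for Ly6a (28.7 CPM) over all cells.
Tph1, the serotonin-synthesis enzyme of enteroendocrine cells, was at 10.4 CPM in 1 Abx_14D sample and at 0.762 to 1.06 CPM in the others. In Abx_14D, single samples also stood apart for Per2 (47.7 CPM), Msmo1 (26.0 CPM), Ces2e (21.2 CPM), Dgat2 (29.5 CPM), Gsdmd (36.3 CPM), Tlr3 (17.7 CPM) and Dnajc3 (105 CPM). In GF they did so for Fdft1 (66.0 CPM), Sult1a1 (171 CPM), Cox6c (168 CPM), Gjb1 (47.3 CPM), Krt18 (118 CPM) and Fabp6 (3.79 CPM).
The change of Hdac9 differed between absorptive and cycling cells by 2.17 on the log2 scale in the test of that difference.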

How the results depend on the processing

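Over all cells, DESeq2 called 321 genes and no low-count filter 259, against 152; 151 of the 152 were also called in each. Leaving out single samples gave 126 to 284. Over all cells the lower interferon response, MHC class II and MHC class I genes numbered 40 to 45, 6 and 8 to 11 when single samples were left out. In absorptive cells the count was 300 without the filter and 85 to 133 leaving out samples; the lists gave 35 to 41, 4 to 5 and 7 to 9, MHC class I 6 with equal weight per cell, and MHC class II 3 and 2 without sublibraries 2 and 5. In goblet cells it was 115 with DESeq2, 304 without the filter (MHC class II 5) and 39 to 84 leaving out samples, and the lists gave 17 to 30, 2 to 3 and 3 to 6, with MHC class I at 3 without sublibrary 4. In stem cells it was 207 with DESeq2, 413 without the filter and 82 to 305 leaving out samples, with lists at 24 to 32, 6 and 5 to 10. In cycling cells it was 53 with DESeq2 (interferon 13), 20 with equal weight (interferon 5, MHC class I 4), 61 with the gate halved (interferon 18, MHC class II 5), 212 without the filter (interferon 32, MHC class II 6) and 24 to 70 leaving out samples, with lists at 7 to 20, 2 to 3 and 5 to 8. The difference between absorptive and cycling cells gave 3 genes with TMM, 4 with limma-voom and 0 to 3 leaving out samples. The gate doubled gave no fit for absorptive, stem and cycling cells. No filter tests more genes; the other causes were not tested.
The difference in the share of stem cells was 0.267 percentage points with the gate doubled and -2.76 to 2.52 leaving out samples (2.52 without Abx_14D sample 1, 1.26 without GF sample 4). The other shares ranged from -2.26 to -0.852 (absorptive), 0.447 to 2.31 (goblet), 0.998 to 1.79 (cycling), 0.117 to 0.288 (enteroendocrine) and 0.353 to 0.785 (tuft).
Sign changes were found in Car1, which was called, and in genes that were not. Car1 and Slc10a2 were at 0.19 and 0.30 with equal weight. Uty was -0.05 with limma-voom and Ptprc 0.18 without immune-gated cells. Fabp6 was 0.06, 0.10, 0.03, 0.17 and 0.07 without sublibraries 1, 2, 3, 5 and 8, and Slc51a 0.00 without sublibrary 5. Leaving out samples, ranges across 0 were -0.27 to 1.04 for Uty, -0.35 to 0.93 for Kdm5d, -0.51 to 0.81 for Xist, -0.64 to 0.17 for Fabp6, -0.64 to 0.01 for Slc10a2, -0.84 to 0.01 for Ptprc, -0.46 to 0.01 for Slc51a and -0.01 to 1.37 for Eif2s3y.
No label ties same-numbered samples to a shared animal or batch, though they share the Xist level. Their deviations from the group means correlated at 0.0357, 0.0743, 0.293 and 0.0209, and not every sample correlated best with its own number. With the replicate number as a block, 165 genes were called over all cells, 139 of them among the 152. With the Xist level as a covariate, chosen after seeing the data, 26 genes were higher and 155 lower.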

Other observations

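Of the 137 genes lower in GF over all cells, 74 were in none of the lists, and those named here were chosen after their values were seen. Several are known as interferon-induced. Rnf213, a large ubiquitin ligase, was at 438, 453, 465 and 296 CPM in Abx_14D and 172, 162, 150 and 129 CPM in GF, a fall of 1.43 on the log2 scale. Ifi27l2b went from 125, 123, 144 and 131 CPM to 47.1, 48.3, 42.1 and 52.6 CPM, a fall of 1.46. Neither gene's groups overlapped. The membrane protein Ifitm3 fell by 1.81, the lectin Lgals9 by 1.64 and the surface protein Ly6e by 1.25.
Others are named here by other roles, and whether interferon also induces them was not tested. Mlkl, the executor of necroptosis, fell by 0.88, the transcriptional repressor Bcl6 by 0.89, Plac8 by 0.73 and the lysosomal protease Ctss by 0.60. Among the higher genes at low levels, Robo1 went from 4.08, 5.30, 2.72 and 2.50 CPM to 10.7, 9.48, 17.3 and 18.1 CPM and rose by 1.86.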
